A study of Mus musculus with 2 samples.

Results

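The complement system is a cascade of blood and tissue-fluid proteins that tags, opsonises and lyses targets, and 9 of its component and regulator genes were followed here in mouse lung epithelial cells. The genes were those listed in the deposited tables as Hc, C3, C4b, C2, Cfb, Serping1, C1ra, Cd55 and Cd59a, and all 9 had a row in both tables, out of 15113 genes with a row in either. The RNA came from lung cells of C57BL/6 mice aged 6 to 8 weeks, sorted by flow cytometry as CD45-negative and Sftpc-positive, with 1 library per group. The library called normal here came from wild-type mice without a tumour. The library called LLC came from tumour-bearing mice of a spontaneous lung metastasis model, in which 1000000 luciferase-labelled LLC cells, a mouse line of Lewis lung carcinoma, are injected under the skin of the back. The sources used here do not give how many mice stood behind a library or how Sftpc was detected in the sort.

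In the classical pathway, antibody-bound C1q activates the proteases C1r and C1s, which cleave C4 and C2 into a C3 convertase. In the alternative pathway, factor B joins C3b to form a second convertase, which amplifies the cascade. Both pathways end in the cleavage of C5 and assembly of the membrane attack complex from C5b to C9. C1 inhibitor, CD55 and CD59 hold the cascade back at the C1 proteases, at the convertases and at the membrane attack complex. The liver makes most of the circulating proteins, and alveolar type 2 (AT2) cells, the surfactant-making cells of the alveolus, are known to make C3 and C5.

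Values are RPKM, in which a gene's reads are divided by its length and by the library's read total, so levels of different genes can be set side by side. Where values are given as a pair, the normal library comes first. Read totals worked out from the deposited values were 5335352 for the normal and 5387114 for the LLC library. Each group held 1 library, so replicate error is unknown and no p-value can be given. Bracketed ranges are 95% intervals, exact for the recovered reads, and cover counting error only. Sftpc was the most abundant gene in both libraries, all 12 genes of an AT2 list were read, and Ptprc, which encodes CD45, had 12 and 2 reads.

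Of the 9 genes, 5 were matched in a RefSeq table of GRCm38.p6 promoters, the assembly that mm10 denotes. Each entry runs from 250 bases before to 50 bases after an annotated transcript start. Those of the most abundant gene (Hc), of C3 and of a member that was over 2-fold higher in the LLC library (C1ra) are shown, since they belong to genes that differed in size and direction. Cd55 and Cd59a were also matched, and C4b, C2, Cfb and Serping1 were not. Capitals mark matches to the motifs searched.
Hc, chr2:35061363-35061662, minus strand: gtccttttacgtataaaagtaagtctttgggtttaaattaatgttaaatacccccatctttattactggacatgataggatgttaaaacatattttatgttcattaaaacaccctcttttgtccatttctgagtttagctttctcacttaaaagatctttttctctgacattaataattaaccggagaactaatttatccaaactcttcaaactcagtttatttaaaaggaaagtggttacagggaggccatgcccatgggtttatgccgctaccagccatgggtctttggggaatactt
C3, chr17:57228087-57228386, minus strand: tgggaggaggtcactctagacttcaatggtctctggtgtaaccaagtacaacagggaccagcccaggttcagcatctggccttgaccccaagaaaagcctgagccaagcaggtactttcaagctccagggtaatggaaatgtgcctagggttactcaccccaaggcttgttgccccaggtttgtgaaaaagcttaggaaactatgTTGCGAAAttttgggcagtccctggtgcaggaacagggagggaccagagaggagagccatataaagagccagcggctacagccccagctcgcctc
C1ra, chr6:124512371-124512670, plus strand: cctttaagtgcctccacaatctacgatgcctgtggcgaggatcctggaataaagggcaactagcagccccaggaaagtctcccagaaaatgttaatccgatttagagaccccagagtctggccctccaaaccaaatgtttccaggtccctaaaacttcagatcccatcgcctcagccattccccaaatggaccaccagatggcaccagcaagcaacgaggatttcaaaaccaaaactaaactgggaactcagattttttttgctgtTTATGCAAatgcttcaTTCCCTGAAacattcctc

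Motifs were searched on both strands as TTCNNNGAA (STAT), TGANTCA (AP-1), GGGANNTTC (NF-kB), TTGCNNAA (C/EBP), GAAANNGAA (ISRE, the interferon-stimulated response element) and ACANNNTGT (glucocorticoid receptor half-sites). Positions count from the transcript start, negative before it. The C3 window held 1 C/EBP match, at -45 to -38. The C1ra window held 1 C/EBP match, on the opposite strand at 17 to 24, and 1 STAT match at 33 to 41. The C/EBP letters occurred in 10.8% of 32851 promoters of the same length and the STAT letters in 8.3%. No motif matched in the Hc or Cd55 window, and Cd59a held 1 ISRE match, letters found in 8.56% of promoters. A match is a description of the letters in these windows, and the Hc and Cd55 windows lie inside the annotated spans of their genes.

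The complement genes did not move as a block between the libraries. Hc, which encodes C5, was lower in the LLC library, and 4 genes of early complement steps (Cfb, Serping1, C4b and C1ra) were over 2-fold higher. C3 was moderately higher, and the membrane inhibitors Cd55 and Cd59a were slightly lower, with ratios of 0.834 and 0.728. Changes were sized as the log2 ratio of RPKM + 1, LLC over normal, with 2-fold as the threshold, for genes that reached 1 RPKM in either library. Of the 9 genes 8 passed that minimum, all but C2. Of the 8, 4 were higher by 2-fold or more and 1 lower by 2-fold or more. Of those higher, Cfb, at 0.339 RPKM in the normal library, reached the minimum only in the LLC library. Among all 12288 genes tested, 9.38% were higher by 2-fold or more and 6.53% lower by 2-fold or more. The median log2 ratio was 1.22 over the 8 members and 0.06 over all genes tested. With C2 kept, the median over all 9 members was 0.56, and it was 0.81 over the 8 with a pseudocount of 5.

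**Figure D1:**
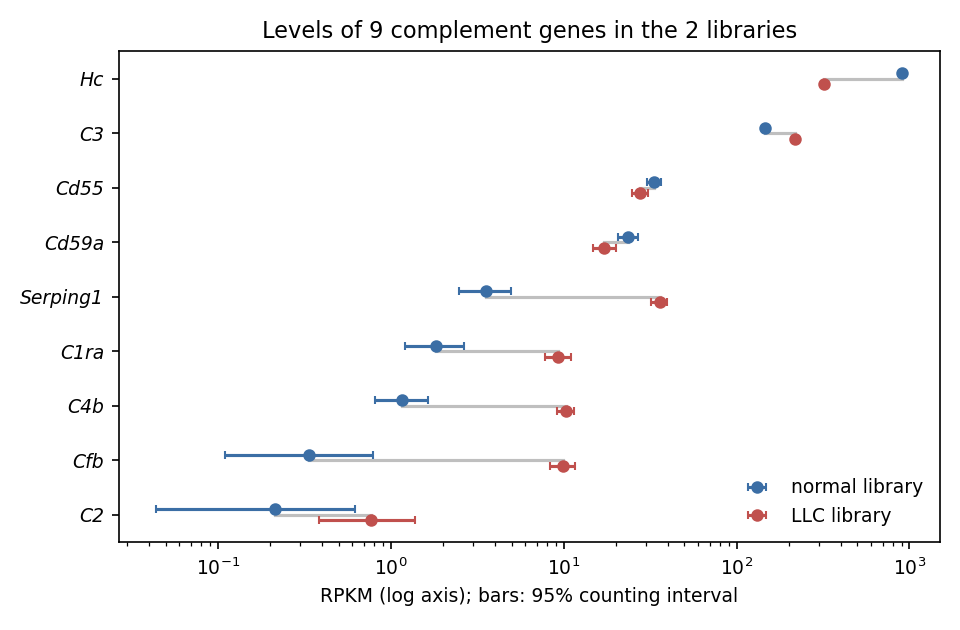
Levels of the 9 complement genes in RPKM on a log axis, with the normal library in blue, the LLC library in red and bars for the 95% counting interval. Hc lies highest in both libraries and moves left from 900 to 320 RPKM, while Serping1, C1ra, C4b and Cfb move right and C2 stays below 1 RPKM.

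Hc (GeneID 15139, chromosome 2, 34983329 to 35068506 on mm10) encodes C5, whose cleavage gives the chemoattractant C5a and starts membrane attack. It was at 900 RPKM in the normal library and 320 RPKM in the LLC library, from 26148 and 9397 reads. This was 2.81-fold lower (2.74 to 2.88) in the LLC library. In bulk RNA, fewer cells of a type and less RNA per cell cannot be told apart. Hc was the 36th most abundant gene of the normal library and the 171st of the LLC library. Its log2 ratio of -1.49 was 264th from the lowest of the genes tested.

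The difference in Hc was larger than that of the AT2 markers. All 12 AT2 markers had a log2 ratio above that of Hc. The median of the AT2 list was -0.27, with 10 of the 12 within 2-fold, 1 higher by 2-fold or more (Sftpd, surfactant protein D, within 2-fold under each of 3 other scalings and centring on the median) and 1 lower by 2-fold or more (Etv5, an AT2 transcription factor gene). Hc equalled 0.948% of the Sftpc level in the normal library and 0.582% in the LLC library. The 3 genes nearest to Hc in level over the 2 libraries, by distance on log2(RPKM + 1), were Zfp36, H2-Aa, an MHC class II gene, and Junb. Zfp36, an mRNA-decay factor gene, was at 828 and 289 RPKM, and Junb, an AP-1 subunit gene, at 718 and 244 RPKM.

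C6, the next terminal component, was the only other one of the membrane attack proteins above 10 RPKM. It was at 91.1 RPKM in the normal and 68.5 RPKM in the LLC library, a ratio of 0.752 (0.693 to 0.815). C7, which binds after C6, was at 2.21 and 5.28 RPKM, a ratio of 2.38 (1.56 to 3.72). C8a, C8b, C8g and C9 were listed in neither table. Hc exceeded C6 by 9.88-fold in the normal library and by 4.68-fold in the LLC library. Thus Hc and C6 were both lower and C7 higher, and on the log2 scale of RPKM + 1 only Hc passed 2-fold. The log2 ratio of C7 was 0.97 on that scale, 1.22 with a pseudocount of 0.1 and 1.24 on recovered reads.

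C3 (GeneID 12266, chromosome 17, 57203967 to 57228136) encodes the protein on which all pathways meet. It was at 146 RPKM in the normal and 217 RPKM in the LLC library, from 4015 and 6006 reads. The ratio was 1.48 (1.42 to 1.54), beyond counting error and within 2-fold. Because Hc and C3 differed in opposite directions, Hc exceeded C3 by 6.15-fold in the normal library and by 1.48-fold in the LLC library. Both remained the 2 most abundant of the 9 genes, and their counting intervals did not overlap in either library.

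Cfb (GeneID 14962, chromosome 17, 34856374 to 34862514), the factor B gene of the alternative pathway convertase, had the highest ratio of the members as measured. It was at 0.339 RPKM in the normal and 9.93 RPKM in the LLC library, from 5 and 148 reads. The ratio was 29.3 (12.3 to 91.6), wide because of the 5 reads in the normal library. Its log2 ratio of 3.03 ranked 59th of 12288. The ratio intervals of Cfb, Serping1 and C4b overlapped, which does not test their order. With a pseudocount of 5 the log2 ratio was 1.48 for Cfb and 2.25 for Serping1, so the order of Cfb and Serping1 depended on the pseudocount. C3 exceeded Cfb by 432-fold in the normal library and by 21.8-fold in the LLC library, so the levels of the convertase partners were closer in the latter. Cfp, which encodes properdin, the stabiliser of that convertase, was lower, with 18 and 4 reads and a ratio of 0.22 (0.0542 to 0.668). Cfd, the factor D protease gene that activates factor B, was listed in neither table.

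The 3 genes nearest to Cfb in level over the 2 libraries were Tmem119, Olfml3 and Pdgfra. Pdgfra, a receptor gene that marks fibroblasts, was at 0.228 RPKM in the normal and 9.35 RPKM in the LLC library. Over 2 libraries such nearness is a pair of similar values and no more. Cfb lies next to C2 on chromosome 17, with 87 bases between the annotated genes, and the C2 level in the LLC library was 0.772 RPKM beside 9.93 RPKM for Cfb. On its other side Nelfe, a transcription elongation factor gene 1 base away, was at 16.9 and 16.8 RPKM.

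C2 (GeneID 12263, chromosome 17, 34862602 to 34882100), the protease partner of C4b in the classical convertase, was the least abundant member. It was at 0.213 RPKM in the normal and 0.772 RPKM in the LLC library, from 3 and 11 reads. The ratio of 3.63 had an interval of 0.959 to 20.3, so no difference was detectable at this depth. C4b (GeneID 12268, chromosome 17, 34728139 to 34743902) was at 1.17 and 10.3 RPKM, from 34 and 301 reads. The ratio was 8.77 (6.14 to 12.9), and the C4b level exceeded that of C2 by 13.3-fold in the LLC library. C4b, Cfb and C2 lie within 153962 bases in the major histocompatibility complex region. Across the members, 19 other protein-coding genes within 50 kb of a member were tested, and 2 of them were higher by 2-fold or more and 0 lower by 2-fold or more. Those higher were Stk19, between C4b and Cfb, with a log2 ratio of 1.18, and Cntrl, a centrosome gene near Hc, with 1.01, which fell to between 0.91 and 0.97 under each of 3 other scalings.

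C1ra (GeneID 50909, chromosome 6, 124512621 to 124523440) encodes the C1r protease, which activates C1s. It was at 1.83 RPKM in the normal and 9.34 RPKM in the LLC library, from 27 and 139 reads, a ratio of 5.1 (3.36 to 8.01). C1s1, its substrate protease gene 6903 bases away, was at 1.53 and 3.65 RPKM, a ratio of 2.39 (1.46 to 4.03), and its log2 ratio of 0.88 stayed within 2-fold, while it was 1.21 with a pseudocount of 0.1 and 1.24 on recovered reads. The nearer neighbour C1rl, a C1r-like protease gene, was at 7.6 and 4.93 RPKM, a ratio of 0.649 (0.484 to 0.868). These protease genes side by side on chromosome 6 thus differed in both directions. Macrophages are known to make the C1q chains. Of their genes, C1qb and C1qc had 0 reads in the normal library and 32 and 22 reads in the LLC library. Set against 3 reads as a floor, this was 10.6-fold higher for C1qb and 7.26-fold higher for C1qc. Those figures leave out counting error in the LLC reads. C1qa had 11 and 17 reads, a ratio of 1.53 (0.676 to 3.62), and that interval is a different kind of limit.

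Serping1 (GeneID 12258, chromosome 2, 84765360 to 84775444) encodes C1 inhibitor, the serpin that inactivates C1r and C1s. It was at 3.57 RPKM in the normal and 35.9 RPKM in the LLC library, from 35 and 355 reads. The ratio was 10 (7.09 to 14.7), and the log2 ratio of 3.01 ranked 60th of 12288, next to Cfb. Serping1 exceeded C1ra, a gene of its target proteases, by 1.95-fold in the normal library and by 3.84-fold in the LLC library. In the order of the 9 levels it was number 5 in the normal library and number 3 in the LLC library, there above Cd55 and Cd59a.

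The membrane-anchored inhibitors differed little. Cd55 (GeneID 13136, chromosome 1, 130429798 to 130465009), which speeds the decay of convertases, was at 33.3 RPKM in the normal and 27.8 RPKM in the LLC library, from 449 and 378 reads. The ratio was 0.834 (0.725 to 0.958). Cd59a (GeneID 12509, chromosome 2, 104095753 to 104115410), which blocks the final assembly of the membrane attack complex, was at 23.6 and 17.2 RPKM, from 230 and 169 reads, a ratio of 0.728 (0.593 to 0.891). Both intervals lay below 1 and both genes were within 2-fold. Cr1l, the mouse convertase inhibitor known as Crry, was at a similar level of 24.5 and 27.5 RPKM, a ratio of 1.12 (0.931 to 1.35). The C3 level exceeded that of Cd55 by 4.39-fold in the normal library and by 7.8-fold in the LLC library, and that of Cd59a by 6.18-fold and 12.6-fold.

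Summed over the 9 genes, the level was 1110 RPKM in the normal library and 648 RPKM in the LLC library, a ratio of 0.584. Hc made up 81.1% of the normal sum and 49.4% of the LLC sum, and C3 13.2% and 33.4%. Without Hc the direction turned, with 210 RPKM in the normal and 328 RPKM in the LLC library, a ratio of 1.56. In the normal library the counting intervals overlapped for Serping1 and C1ra, for C1ra and C4b, and for Cfb and C2. Overlap of separate intervals does not test a difference, and the order within these pairs was not tested. In the LLC library C4b, Cfb and C1ra overlapped in turn, between 9.34 and 10.3 RPKM.

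**Figure D2:**
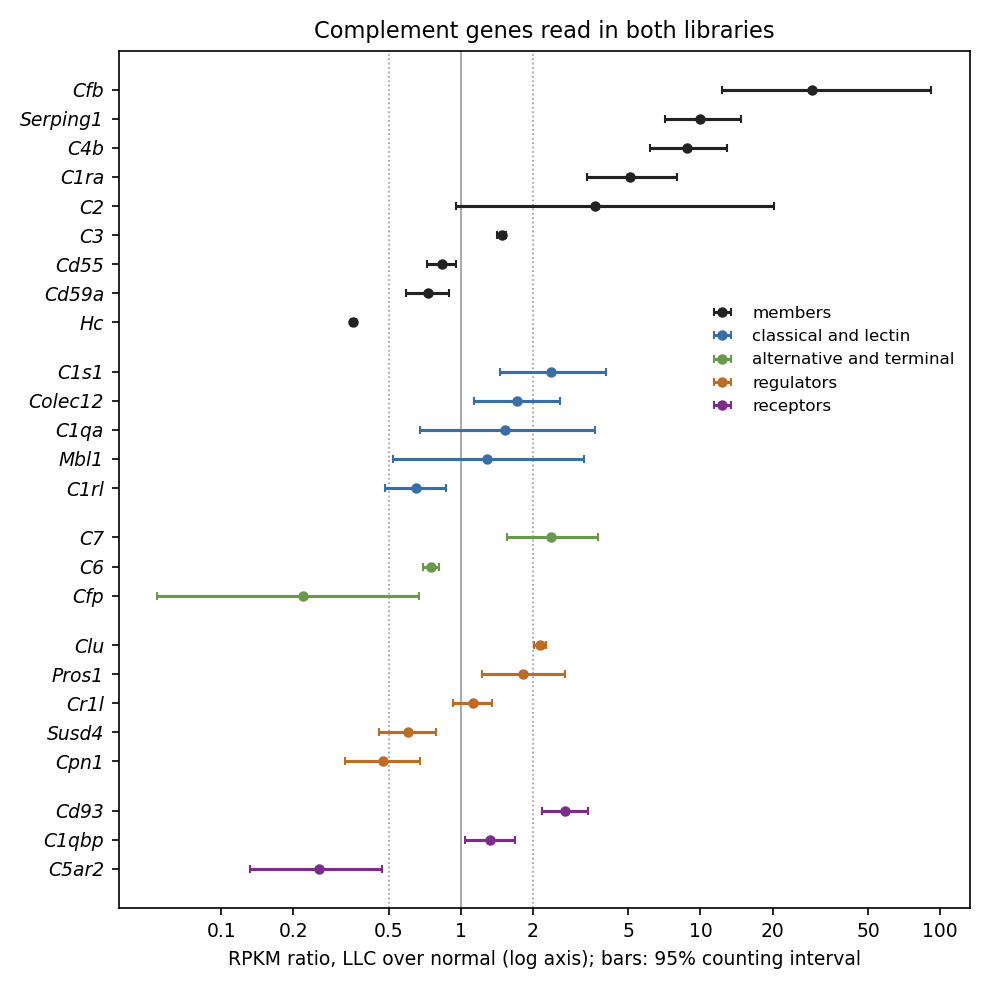
RPKM ratio of LLC over normal for the 9 members and the other complement genes tested and read in both libraries, on a log axis with 95% counting intervals, dotted lines at 2-fold. Cfb, Serping1 and C4b lie farthest right, and C5ar2, Cfp and Hc farthest left.

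The other genes of the pathway were taken from a list of 52 classical, lectin, alternative, terminal, regulator and receptor genes. Of these, 29 were read in at least 1 library and 18 were tested, with 4 higher by 2-fold or more and 2 lower by 2-fold or more, beside the 9.38% and 6.53% of all genes tested. Their median log2 ratio was 0.41. The 4 higher genes were C1qb, C1qc, Clu and Cd93. Of them, C1qb and C1qc reached 1 RPKM only in the LLC library, and the 2 lower genes reached it only in the normal library. Clu, clusterin, a fluid-phase inhibitor of membrane attack, was the most abundant of the list at 192 and 411 RPKM, a ratio of 2.14 (2.02 to 2.26), and its log2 ratio fell to 0.98, within 2-fold, under upper-quartile scaling. Cd93, a receptor gene of endothelial and myeloid cells, was at 3.22 and 8.75 RPKM, a ratio of 2.72 (2.19 to 3.4).

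The 2 lower genes were Cfp and C5ar2, the second C5a receptor gene, at 2.87 RPKM in the normal and 0.738 RPKM in the LLC library, a ratio of 0.257 (0.132 to 0.469). The main C5a receptor gene C5ar1 was listed in neither table, and the C3a receptor gene C3ar1 had 9 reads in the normal and 0 in the LLC library. Cpn1, a carboxypeptidase subunit gene whose enzyme inactivates C3a and C5a, was at 10.3 and 4.87 RPKM, a ratio of 0.475 (0.328 to 0.679). Its log2 ratio of -0.94 was within 2-fold, and it passed 2-fold with a pseudocount of 0.1 (-1.06), on recovered reads (-1.07) and under upper-quartile scaling (-1.03). Susd4, a membrane complement inhibitor gene, was at 13.4 and 8.03 RPKM, a ratio of 0.601 (0.456 to 0.789).

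The remaining tested genes were within 2-fold. Pros1, the protein S gene, was at 2.41 and 4.37 RPKM, and the lectin genes Colec12 and Mbl1 were at 2.26 and 3.86 RPKM and at 2.03 and 2.61 RPKM. C1qbp, a C1q-binding protein gene that is mainly mitochondrial, was at 20.1 and 26.5 RPKM. The lectin pathway protease genes Masp1 and Masp2 were listed in neither table.

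**Figure D3:**
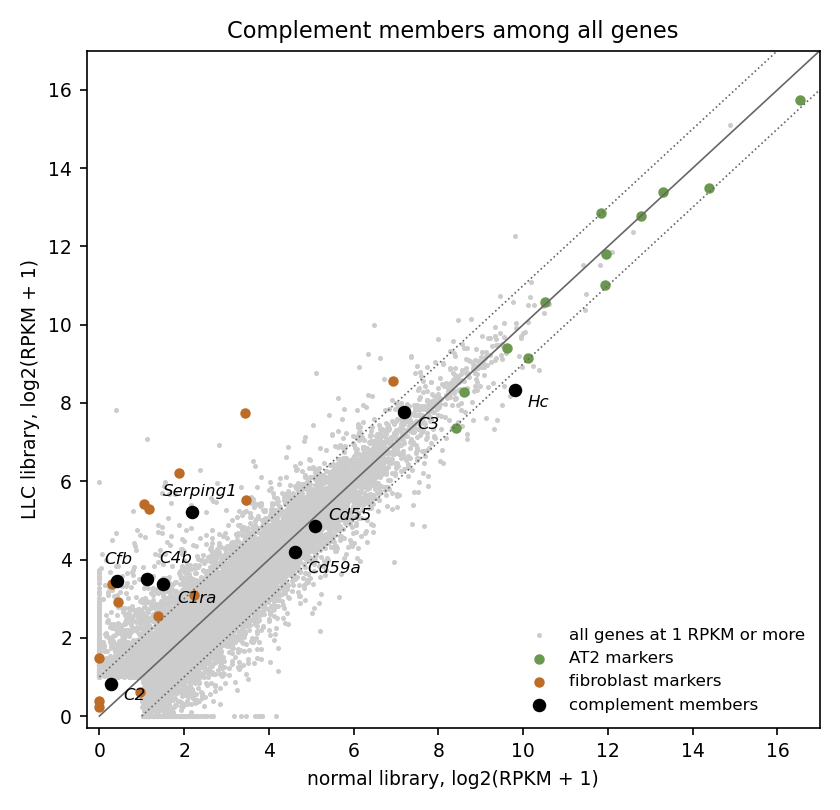
Every gene at 1 RPKM or more (grey) by its log2(RPKM + 1) in the normal and LLC library, with complement members in black, AT2 markers in green and fibroblast markers in orange; the dotted lines mark 2-fold. Hc lies below the lower line, and Cfb, C4b, C1ra and Serping1 lie above the upper line in the range where fibroblast markers also lie.

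Markers of other lung cells differed between the libraries beside the higher complement genes. All 14 fibroblast markers were read in the LLC library and 3 were at 0 in the normal library. Of those 3, Tcf21 and Pi16 had only 2 reads each in the LLC library and Lum had 20. Mfap5, not tested, was lower, with 7 and 4 reads. The summed level of the list was 153 and 822 RPKM, with 10 of 11 tested higher by 2-fold or more. The collagen genes Col1a1, Col1a2 and Col3a1 and the matrix gene Mgp had the largest log2 ratios of that list, from 4.12 to 4.38. All 13 endothelial markers were read in both libraries, with sums of 50 and 189 RPKM and 11 higher by 2-fold or more. The other 2 were lower and within 2-fold. They were Kdr, with a ratio of 0.53 (0.411 to 0.679), and Tek, with 0.85 (0.622 to 1.16). Of the fibroblast sums Col6a1 made up 121 and 379 RPKM. Of the 6 mesothelial markers 3 were tested and 1 was higher by 2-fold or more, Msln, mesothelin, at 1.49 and 16.6 RPKM. Upk1b had a ratio of 1.39 (0.754 to 2.6), and Lrrn4 was listed in neither table. The list summed to 87.4 and 164 RPKM, of which Krt19, a keratin gene that epithelial cells also express, made up 83.6 and 144 RPKM. Against these, C4b, Cfb, C1ra and Serping1 lay between 9.34 and 35.9 RPKM in the LLC library. The part of such cells in these values was not tested.

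For the C1q chains the macrophage list was read. Of its 11 genes Adgre1, Mrc1, Marco, Fcgr1 and Itgam were listed in neither table. Cd68 was at 7.81 and 31.5 RPKM, and Chil3 had 19 and 0 reads. Without the lysozyme gene Lyz1, which AT2 cells also express, the list summed to 68.3 RPKM in the normal and 154 RPKM in the LLC library, of which Cd14 made up 53.1 and 115 RPKM. Of the 10 leukocyte markers, Cd52, Cd3e and S100a8 were listed in neither table, 4 were tested, and 1 was lower by 2-fold or more (S100a9, with 5 and 0 reads). Their sums of 87.8 and 53.6 RPKM were mostly 1 gene, Lcp1, at 82.7 and 50.3 RPKM. Hepatocyte markers, read because liver is the main source of plasma complement, summed to 8.54 and 1.98 RPKM, with Alb at 8.17 and 0.818 RPKM.

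**Figure D4:**
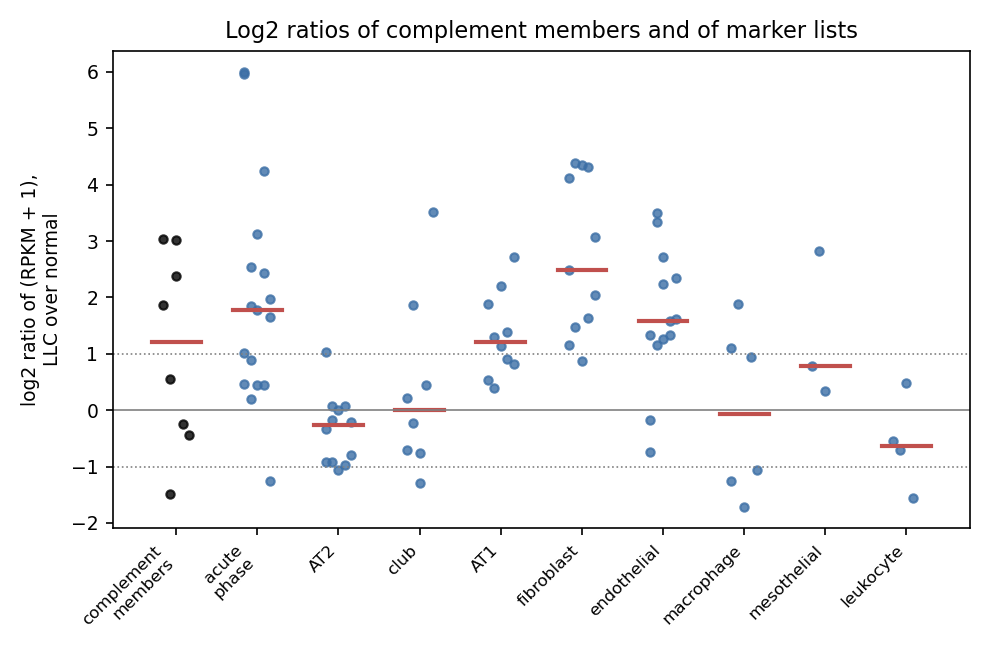
Log2 ratio of RPKM + 1, LLC over normal, for each tested gene (points) of the complement members and of marker lists, with the median as a red line and dotted lines at 2-fold. The complement members spread from -1.49 to 3.03, and the fibroblast and endothelial medians lie at 2.49 and 1.59.

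Epithelial lists did not share 1 direction. The 10 AT1 markers, those of the thin gas-exchange cell, summed to 1781 and 2932 RPKM with a median log2 ratio of 1.21. All 10 were above 0 and 6 were higher by 2-fold or more, beside 9.38% of all genes tested. Their largest ratios were those of Spock2 (7.08), Pdpn (4.82) and Hopx (3.74). The 8 club cell markers, those of the airway secretory cell, had a median of -0.01. Of these, Retnla (ratio 11.6) and Scgb3a1 (3.67) were higher by 2-fold or more and Cyp2f2 (0.409) lower by 2-fold or more. Genes of the acute-phase response, the rise of plasma proteins in inflammation to which C3, C4b and Cfb also belong, had a median of 1.77 over 17 tested genes. Of these 11 were higher by 2-fold or more and 1 lower by 2-fold or more, Hpx, the haem-binding hemopexin, with 18 and 3 reads. Saa1, Saa2 and Fgb, also on that list, were listed in neither table. Serpina3n, a serine protease inhibitor like Serping1, was at 1.17 RPKM in the normal and 134 RPKM in the LLC library, and Orm1, an acute-phase plasma protein gene with close copies that can share its reads, had 0 and 258 reads.

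Some members have close copies that can share reads, and the sources used here do not say how such reads were counted. The longest GENCODE M21 transcripts of C4b and C4a were 95.9% identical over 5378 bases and those of C1ra and C1rb 97.9% over 2431 bases. Identity was 93% over 1053 bases for Cd55 and Cd55b and 83.2% over 739 bases for Cd59a and Cd59b. C4a and C1rb were listed in neither table, Cd55b had 0 and 1 reads, and Cd59b 2 and 0, so the values of C4b and C1ra may include reads of their copies.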

How the data were processed

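RNA sequencing of 2 libraries was used, 1 per group, grouped by the labels' treatment field. For each library the authors deposited RPKM per gene beside its GeneID, symbol and description, per the file headers. Trimmomatic and the mm10 build were used, per the submitters' processing notes, without versions. The sources used here do not give the aligner, counting tool, annotation and strand setting. Since RPKM is relative to the library total, very abundant genes lower the rest, and Sftpc made up 18.6% and 11.2% of the summed RPKM.

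A gene missing from a table counted as 0. Whole reads were recovered for 15097 of 15113 genes (99.9%) as the reads and length that gave the deposited RPKM in both libraries. Multiples were settled by the row order, and 11 of 28181 row pairs were then out of order. Because the order settled the multiples, that count is no separate check of the recovery. The normal total was the value at which implied lengths most often equalled those of GENCODE M21 transcripts. The LLC total was scaled from it by a ratio taken from the RPKM values of the 2 libraries. Of the final lengths, 12% equalled that of a transcript of their gene. Both totals are estimates of this work, used for intervals and 1 alternative. Sftpc has no read number. Ratios have exact (Clopper-Pearson) conditional binomial intervals and levels exact Poisson intervals. No molecular identifiers are described, so reads are not independent molecules.

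The pseudocount was 1 RPKM, and the members, the other complement genes, cell type lists and acute-phase list, and the 2-fold rule, were chosen with earlier results of these data known. Named genes were all members, other complement genes at 1 RPKM or more, leading genes of each marker list, defining markers at 0, neighbours within 50 kb and the 3 genes nearest to Hc and Cfb. Other genes (complement genes below 1 RPKM, Lyz1, Cd68, Orm1 and Sftpd among them) were named after their values were seen. The list of other complement genes leaves out 1 gene that is not reported here. Symbols and coordinates came from a RefSeq table of GRCm38.p6. Python 3.11.15, pandas 2.3.3 and scipy 1.17.1 were used. The procedure was tested on simulated data built from the recovered reads, lengths and totals. Such data cannot show whether these are right for the deposited values.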

Additional observations from a re-analysis of the deposited data

How the results depend on the processing

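All 9 members kept their direction in the 7 alternatives each was run under. These were pseudocounts of 0.1 and 5, trimmed-mean, upper-quartile and Sftpc-free scaling, centring on the median and recovered reads. A pseudocount cannot turn a direction, and recovered reads restate the same RPKM values. The scaling factors were only 1.03 to 1.08, and centring moved each log2 ratio by 0.06. The kept directions are therefore no separate support. Hc, C4b, Cfb, Serping1 and C1ra stayed past 2-fold in all 7, while C2 passed it in 2. The log2 ratio of Cfb ranged from 1.48 to 4.74, that of C4b from 1.31 to 3.11 and that of Hc from -1.60 to -1.48. With a 4-fold rule 3 members were higher and 0 lower. The members' median was 0.56 where no filter on low values was applied, which adds C2, 0.81 at a pseudocount of 5 and 1.11 with upper-quartile scaling. The summed RPKM ratio was 0.565, 0.541 and 0.558 under trimmed-mean, upper-quartile and Sftpc-free scaling, and 1.56 without Hc. Of the other complement genes, 2 were higher and 0 lower with a pseudocount of 5, 0 lower with a filter at 5 RPKM, 7 and 4 past 1.5-fold, and 2 and 0 past 4-fold, while 6 were higher and 3 lower both with a pseudocount of 0.1, which C7 and C1s1 then joined, and on recovered reads. With upper-quartile scaling 3 were higher and 3 lower. Over all genes, 370 were higher and 190 lower with a pseudocount of 5, 687 and 419 with a filter at 5 RPKM, 2383 and 1978 past 1.5-fold, and 204 and 75 past 4-fold. With a pseudocount of 0.1, 1539 were higher and 1247 lower, and on recovered reads 1570 were higher and 1282 lower. Upper-quartile scaling moved the median of all genes from 0.06 to -0.04. Sftpd lay between 0.92 and 0.98 under the 3 scalings and centring, and with a pseudocount of 5 the log2 ratios of C1qc, Cd93, Cfp, C5ar2 and Stk19 were within 2-fold. No paired analysis was possible because each group held 1 library. Depth limited C2 and Cfb, with 3 and 5 reads in the normal library. Why values moved was not tested beyond how each alternative is built.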
